A study of Mus musculus with 14 samples.

Results

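The 10 genes *Tcf7*, *Lef1*, *Bach2*, *Satb1*, *Klf2*, *Foxo1*, *Foxp1*, *Id3*, *Myb* and *Ets1* encode transcription factors of resting and central T cells. They and the gene lists set beside them below were chosen by name, with earlier results of these data known. A listed gene was matched where its symbol is the first given for an entry of the array. Of the 10 genes 10 were found, with 1 entry each among 22203 transcript clusters. A transcript cluster is the set of probes that reads 1 gene.

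Regulatory T cells (Tregs) are CD4+ T cells defined by Foxp3, and their RNA was measured after sorting on 14 Clariom S mouse arrays. CD45.2+ bone marrow of Foxp3-Cre donors was mixed in equal parts with CD45.1+ wild-type marrow and grew in sublethally irradiated Rag1-/- hosts, which lack T and B cells of their own. The donors were Atg14 fl/fl for the group labelled KO and Atg14 +/fl for the control group, labelled heterozygous, so both groups carried Cre and at least 1 floxed allele. Central Tregs (cTregs, CD44-) and effector Tregs (eTregs, CD44+) were sorted apart by surface proteins and by the YFP carried with Foxp3-Cre. There were 4 control cTreg, 3 KO cTreg, 4 control eTreg and 3 KO eTreg arrays. Cre under *Foxp3* acts once a cell has switched on *Foxp3*, so the cross models loss of Atg14, a subunit of the Vps34 lipid kinase complex, within Tregs. Per the study's legends the cells of a group came from separate chimeras, but which cTreg and eTreg arrays share a chimera is not given in the sources used here. The labels give neither the age nor the sex of the hosts. The methods say that some Atg14 fl/fl mice of the study also bore an allele written Atg14+/- or Atg14-/-, and whether any marrow donor did is not given in the sources used here. As for the tissue, lymph nodes are named beside the spleen in the description of the series, whereas the methods speak of the spleen.

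Resting T cells keep a set of transcription factors that hold back division and effector genes and keep the cells circulating through lymphoid organs. TCF-1 (encoded by *Tcf7*) and LEF-1 are related high mobility group factors that can act with β-catenin, Satb1 folds and marks chromatin, and Bach2 represses effector genes at sites that AP-1 factors also bind. Klf2 and the forkhead factor Foxo1 switch on genes for homing and exit from lymphoid tissue, and Foxo1 leaves the nucleus when Akt phosphorylates it downstream of antigen receptor and growth factor signals. Foxp1 is a second forkhead factor known for keeping naive T cells quiescent. Id3 blocks E proteins, Myb acts in lymphocyte development, and Ets1 is abundant in resting lymphocytes.

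The 4 genes whose signals differed between control cTregs and eTregs moved together, so the sequence before their most upstream RefSeq start is shown (GRCm38.p6, 250 bases, 5′ to 3′ on the gene's strand). Capitals mark matches to the searched letters named after the sequences.
Satb1, chr17:51833291-51833540, - strand: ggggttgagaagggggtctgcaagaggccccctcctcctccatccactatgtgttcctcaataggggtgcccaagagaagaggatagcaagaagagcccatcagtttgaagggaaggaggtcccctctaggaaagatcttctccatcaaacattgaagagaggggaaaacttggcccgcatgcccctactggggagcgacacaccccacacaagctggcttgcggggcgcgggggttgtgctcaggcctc
Klf2, chr8:72318812-72319061, + strand: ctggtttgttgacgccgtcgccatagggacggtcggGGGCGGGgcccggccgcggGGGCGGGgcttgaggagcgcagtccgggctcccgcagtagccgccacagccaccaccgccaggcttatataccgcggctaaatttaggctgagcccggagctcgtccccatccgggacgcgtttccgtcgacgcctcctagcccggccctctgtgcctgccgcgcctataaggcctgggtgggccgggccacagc
Bach2, chr4:32417185-32417434, + strand: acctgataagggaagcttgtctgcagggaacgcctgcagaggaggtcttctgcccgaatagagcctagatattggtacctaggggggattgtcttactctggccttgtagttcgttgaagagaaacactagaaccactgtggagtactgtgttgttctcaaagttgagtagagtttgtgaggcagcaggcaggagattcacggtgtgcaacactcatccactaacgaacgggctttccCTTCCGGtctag
Lef1, chr3:131110047-131110296, + strand: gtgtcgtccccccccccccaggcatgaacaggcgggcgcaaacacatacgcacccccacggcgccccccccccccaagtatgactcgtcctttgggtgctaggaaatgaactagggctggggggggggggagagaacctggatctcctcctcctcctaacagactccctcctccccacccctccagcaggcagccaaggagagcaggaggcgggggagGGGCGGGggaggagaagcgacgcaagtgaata

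Windows of 300 bases, 250 before and 50 after a start, were listed for 9 of the 10 genes (19 windows, not *Ets1*) and were searched on both strands for 8 short motifs. The GC box GGGCGGG, capitalised upstream of *Klf2* and *Lef1*, was in 12 of the 19 windows, over 8 genes, and in 25.6% of all 32851 windows. The ETS letters CCGGAAG, capitalised on the reverse strand upstream of *Bach2*, were in 2 of 19 windows and in 8.86% of all. The E-box CAGGTG was in 5 of 19 against 20.2%, the MYB letters TAACGG in 3 against 2.76%, the forkhead letters GTAAACA in 2 against 3.65%, and the KLF letters CCACACCC in 1 against 3.56%. The TCF/LEF letters CTTTGAT (3.73% of all) and the BACH and AP-1 letters TGAGTCA (5.2% of all) were in 0 of 19. No match of the 8 motifs lies in the stretch shown for *Satb1*. Windows of 1 gene can overlap each other, and none of these letter strings contains another.

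The targeted gene came first as a check of the labels. *Atg14* signals (log2) were 8.64 to 9.26 in control cTregs, 9.24 to 9.33 in KO cTregs, 8.64 to 9.01 in control eTregs and 9.004 to 9.32 in KO eTregs. They were thus not lower in the arrays labelled KO, with differences of 0.35 in cTregs (adjusted P = 0.9999 by limma) and 0.32 in eTregs (adjusted P = 0.5505), and KO below means a label. Where the probes lie relative to the floxed part was not analysed here. The paper states that deletion of *Atg14* was verified by quantitative PCR in Tregs of Foxp3-Cre Atg14 fl/fl mice, on other samples than these arrays. Array medians were 8.77 to 8.90, the medians of 23 background probe sets were 6.00 to 6.30 and no member fell below 9.69 on any array. *Cd44* followed the gates, being 1.61 higher (adjusted P = 0.0001214 by limma) in control eTregs than cTregs, while *Foxp3* was 12.74 to 13.12 on all arrays.

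2 KO eTreg arrays stood apart in macrophage and monocyte genes. The log2 of the summed signals of 12 macrophage and monocyte genes was 14.47 on KO eTreg 2 and 14.43 on KO eTreg 3, against 12.17 on KO eTreg 1, 12.39 to 12.84 in control eTregs, 11.84 to 11.93 in control cTregs and 11.95 to 12.10 in KO cTregs. *Mrc1*, a macrophage mannose receptor gene, reached 11.29 and 10.64 on these 2 arrays and 7.29 on KO eTreg 1. At an adjusted P below 0.05 by limma, 2.38% of all transcript clusters were higher and 1.2% lower in control eTregs than in control cTregs. In KO eTregs 2.06% were higher and 0.374% lower than in KO cTregs. Of the 12 macrophage and monocyte genes 0 passed the test between control subsets and 5, all higher in eTregs, between KO subsets. Of 9 dendritic cell genes 0 and 2 did so, both higher in KO eTregs, and *Siglech*, a plasmacytoid dendritic cell gene, was the only marker of another cell type that passed between KO and control eTregs (1.78 higher, adjusted P = 0.0004832). Of 8 CD8 T and NK cell genes 2 were higher and 2 lower in control eTregs and 2 higher in KO eTregs, and of 8 B cell, 8 neutrophil and 7 erythroid genes none passed in either, nor did any of 7 matched T cell identity genes. None of these marker genes but *Siglech* passed for genotype in either subset in the fit of all arrays. Without KO eTreg 1, however, 11 of the 12 macrophage and monocyte genes and 5 of the 9 dendritic cell genes passed between KO and control eTregs. Between the control subsets 7 and 2 then passed, and shares of all transcript clusters were not counted in this refit. Counts for the comparisons with KO eTregs, and the values that moved most, are therefore also given without KO eTreg 2 and 3. These refits keep KO eTreg 1, where *Siglech* was 9.78, against 8.37 to 8.86 in control eTregs. *Siglech* was 10.79 on KO eTreg 2 and 10.65 on KO eTreg 3. The log2 of the summed signals of the 9 dendritic cell genes was 11.76 on KO eTreg 1, against 11.53 to 11.65 in control eTregs. Leaving out KO eTreg 2 and 3 thus does not remove this signal.

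In control mice 4 of the 10 genes, *Satb1*, *Klf2*, *Bach2* and *Lef1*, had lower signals in eTregs than in cTregs at an adjusted P below 0.05. The adjustment (Benjamini-Hochberg) runs over all 22203 transcript clusters, of which 1.2% were lower by the same rule. With array weights, which let the fit trust variable arrays less, 7 of the 10 passed. The added genes were *Foxp1* (adjusted P = 0.005966 by limma), *Foxo1* (adjusted P = 0.01585) and *Tcf7* (adjusted P = 0.04355). The share of all transcript clusters that passed with these weights was not counted, so the 7 cannot be set beside the 1.2%. The median log2 difference was -0.41 over the 10 genes and 0.0026 over all transcript clusters. The signals of 7 genes did not overlap between these groups, all lower in eTregs, as was so for 5.02% of all transcript clusters. In RNA of sorted cells, fewer cells with a transcript and less of it per cell cannot be told apart. The macrophage sum above was also higher in control eTregs than in control cTregs on every array, and its part in these differences was not tested.

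**Figure D1:**
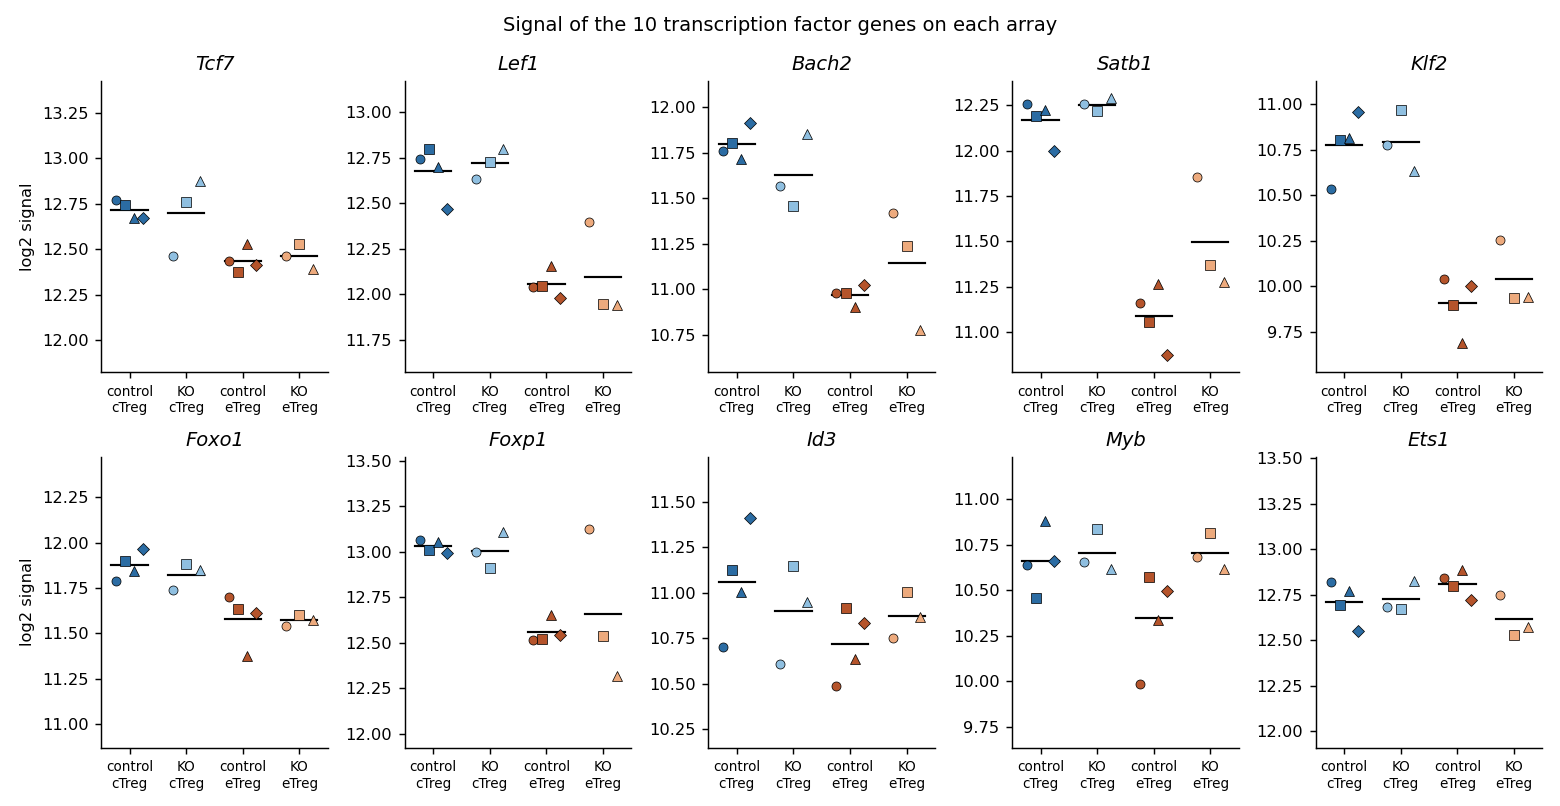
Log2 signal of each gene (y axis, 1.6 units in every panel) on each of the 14 arrays, by group (x axis). Points are arrays, with circles, squares, triangles and diamonds for replicate numbers 1 to 4, and black lines are group means. *Satb1*, *Klf2*, *Bach2* and *Lef1* lie lower in eTregs than in cTregs, and KO eTreg 1 (light orange circle) lies above the other eTreg arrays for *Lef1*, *Bach2*, *Satb1*, *Klf2* and *Foxp1*.

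*Satb1*, the chromatin organiser, showed the widest gap. Its log2 signals were 12.26, 12.19, 12.22 and 11.99 in control cTregs, and 11.16, 11.06, 11.26 and 10.88 in control eTregs. Every eTreg array lay below every cTreg array. The difference was -1.08 (SE 0.13, 95% confidence interval -1.34 to -0.81), a 2.11-fold lower signal (adjusted P = 9.944e-05 by limma).

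*Bach2*, the repressor of effector genes, had signals of 11.76, 11.80, 11.72 and 11.91 in control cTregs and 10.98, 10.98, 10.90 and 11.02 in control eTregs. The arrays of each group lay close together, and the groups did not overlap. The difference was -0.83 (SE 0.13), 1.78-fold (adjusted P = 0.001048 by limma).

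Of the related pair of high mobility group factors, *Lef1* differed and *Tcf7* did not pass the test. *Lef1* signals were 12.74, 12.80, 12.70 and 12.47 in control cTregs and 12.04, 12.05, 12.15 and 11.98 in control eTregs, again with no overlap. Its difference was -0.63 (SE 0.11), 1.54-fold (adjusted P = 0.004033 by limma). *Tcf7* lay between 12.67 and 12.77 in control cTregs and between 12.37 and 12.53 in control eTregs, a difference of -0.28 (95% confidence interval -0.48 to -0.070, adjusted P = 0.1747 by limma). The groups did not overlap for *Tcf7* either, and whether the 2 genes differ in the size of the change was not tested.

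*Klf2* switches on genes for homing and exit from lymphoid tissue. Its signals were 10.54, 10.81, 10.82 and 10.96 in control cTregs and 10.04, 9.90, 9.69 and 10.002 in control eTregs, so all eTreg arrays were lower. The difference was -0.87 (SE 0.12), 1.83-fold (adjusted P = 0.0004578 by limma).

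*Foxo1*, which lies upstream of *Klf2* in T cells, had signals of 11.79 to 11.97 in control cTregs and 11.38 to 11.70 in control eTregs. The groups did not overlap, and the difference of -0.29 (95% confidence interval -0.49 to -0.097) did not pass (adjusted P = 0.1144 by limma).

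*Foxp1* signals were 13.06, 13.01, 13.05 and 12.995 in control cTregs and 12.52, 12.52, 12.65 and 12.54 in control eTregs. The control arrays were thus tight and did not overlap, but the difference of -0.47 (SE 0.13) missed the threshold in the fit of all 14 arrays (adjusted P = 0.06809 by limma). The fit shares 1 spread per gene over the 4 groups, and the KO eTreg arrays gave 13.13, 12.54 and 12.32 for *Foxp1*. Fitted on the control arrays alone *Foxp1* passed (adjusted P = 0.004637 by limma), and also without KO eTreg 1 (adjusted P = 0.003891) or KO eTreg 3 (adjusted P = 0.02993). Of the 14 fits that left out 1 array *Foxp1* passed in these 2 only, and in the others its adjusted P reached 0.1565 by limma. It passed in 6 of the 9 alternatives other than leaving out 1 array.

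The remaining genes, *Id3*, *Myb* and *Ets1*, overlapped between the control subsets. *Id3*, the E protein inhibitor, was 10.70 to 11.41 in cTregs and 10.49 to 10.91 in eTregs, a difference of -0.34 (adjusted P = 0.3455 by limma). *Myb* was 10.46 to 10.88 and 9.99 to 10.58, a difference of -0.31 (adjusted P = 0.2971). *Ets1* alone had a positive difference, 0.10 (95% confidence interval -0.095 to 0.30, adjusted P = 0.7935), with signals of 12.55 to 12.82 and 12.72 to 12.89.

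In the arrays labelled KO 3 of the 10 genes, *Klf2*, *Satb1* and *Lef1*, were lower in eTregs, against 0.374% of all transcript clusters lower by this rule. The median difference was -0.30 over the 10 genes and -0.044 over all. The groups did not overlap for 5 genes (*Lef1*, *Bach2*, *Satb1*, *Klf2* and *Foxo1*), all lower in eTregs, against 7.49% of all transcript clusters.

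*Klf2* signals were 10.78, 10.97 and 10.63 in KO cTregs and 10.25, 9.93 and 9.94 in KO eTregs, with KO eTreg 1 the highest of the eTreg arrays. The difference was -0.75 (SE 0.14), 1.68-fold (adjusted P = 0.008396 by limma).

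*Satb1* signals were 12.25, 12.22 and 12.29 in KO cTregs and 11.86, 11.37 and 11.27 in KO eTregs. Again KO eTreg 1 was nearest to the cTregs, and the difference was -0.75 (SE 0.15, adjusted P = 0.01034 by limma).

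*Lef1* signals were 12.63, 12.73 and 12.80 in KO cTregs and 12.40, 11.95 and 11.94 in KO eTregs, a difference of -0.62 (SE 0.13, adjusted P = 0.01813 by limma). *Bach2* signals were 11.57, 11.46 and 11.85 in KO cTregs and 11.42, 11.24 and 10.78 in KO eTregs, and the groups nearly met. Its difference of -0.48 (SE 0.15) did not pass (adjusted P = 0.1122 by limma). The other 6 genes had differences of -0.35 (*Foxp1*, adjusted P = 0.3285) to 0.0022 (*Myb*, adjusted P = 0.9968).

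These 3 calls varied with the arrays that entered. Without KO eTreg 1 the count was 5, adding *Bach2* (-0.62, adjusted P = 0.01822 by limma) and *Foxp1*. The share of all transcript clusters that passed in such refits was not counted. Without KO eTreg 2 it was 1 (*Klf2*), and without KO eTreg 3 it was 0, although the differences stayed at -0.70 in both fits for *Klf2*, at -0.69 and -0.64 for *Satb1* and at -0.55 in both for *Lef1*. The call for *Lef1* was also lost without KO cTreg 2 (adjusted P = 0.05572 by limma) or KO cTreg 3 (adjusted P = 0.07497). Without KO eTreg 2 and 3 together 0 passed, and the differences for KO eTreg 1 alone against the KO cTregs were -0.54 for *Klf2* (adjusted P = 0.4214), -0.40 for *Satb1* (adjusted P = 0.5618) and -0.32 for *Lef1* (adjusted P = 0.6826), with the lone array assumed to vary like the other groups. Fitted on the KO arrays alone, with the same differences, 0 of 10 genes passed (adjusted P = 0.08177 for *Klf2*, 0.1164 for *Satb1* and 0.1777 for *Lef1*). In contrast, leaving out any 1 of the 14 arrays kept all of *Satb1*, *Klf2*, *Bach2* and *Lef1* among the calls between control subsets.

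**Figure D2:**
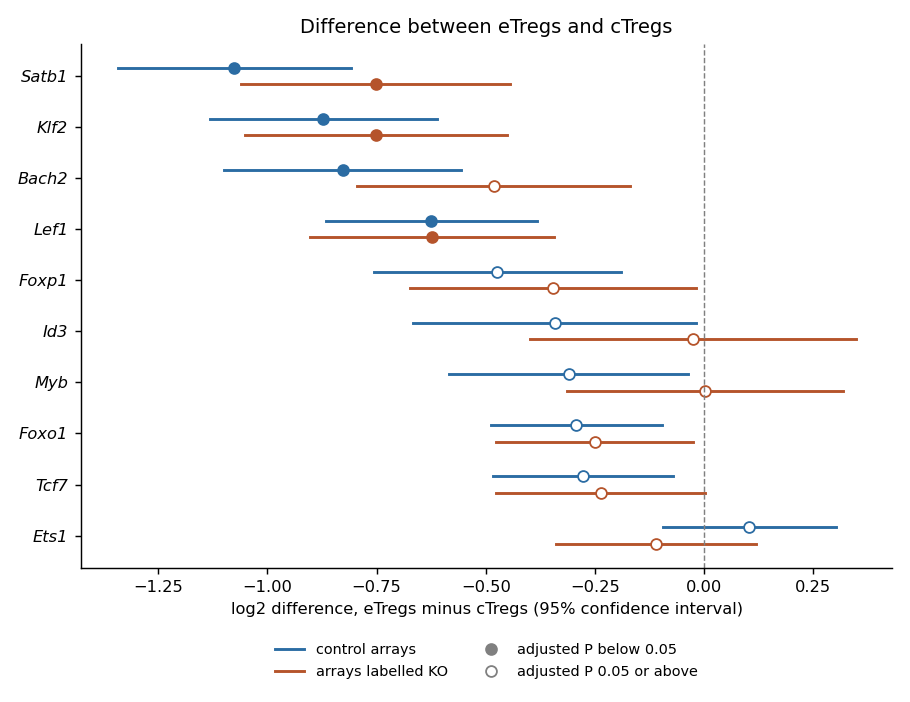
Log2 difference of eTregs minus cTregs (x axis) for each gene (y axis) in control arrays (blue) and arrays labelled KO (orange). Points are limma estimates, lines their 95% confidence intervals, and filled points have an adjusted P below 0.05, which holds for 4 genes in controls and 3 in the KO arrays.

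With the mean of both subset effects taken from the same fit, a comparison added after the separate effects were seen, 7 of 10 genes were lower in eTregs, against 2.05% of all transcript clusters. They were the 4 genes above, *Foxp1* (-0.41, adjusted P = 0.02194 by limma), *Foxo1* (-0.27, adjusted P = 0.02749) and *Tcf7* (-0.26, adjusted P = 0.04914). Of the 14 fits that left out 1 array, *Tcf7* passed in 1, *Foxo1* in 7 and *Foxp1* in 11, and without KO eTreg 2 and 3 the 4 genes above alone passed. With same-numbered arrays of a genotype as a replicate block 6 genes passed and *Tcf7* did not (adjusted P = 0.0676 by limma).

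Loss of Atg14 by label was compared within each subset. In eTregs 0 of the 10 genes passed (0.117% of all transcript clusters did, either way, by limma), and 2, *Satb1* and *Myb*, had an unadjusted P below 0.05, against 8.03% of all. Both were higher in the KO eTregs without overlap, as were 3.01% of all transcript clusters.

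*Satb1* was 11.86, 11.37 and 11.27 in KO eTregs against 11.16, 11.06, 11.26 and 10.88 in control eTregs. The lowest KO array was thus just above the highest control array, and the difference was 0.41 (95% confidence interval 0.12 to 0.70, adjusted P = 0.3568 by limma). Without KO eTreg 2 and 3 it was 0.77 (adjusted P = 0.08545 by limma), and without KO eTreg 1 it was 0.23 (adjusted P = 0.4443).

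*Myb* was 10.69, 10.81 and 10.62 in KO eTregs against 9.99, 10.58, 10.34 and 10.50 in control eTregs. The KO arrays were close to each other and the control arrays spread more widely, and the difference was 0.36 (95% confidence interval 0.061 to 0.65, adjusted P = 0.488 by limma). It was 0.34 without KO eTreg 2 and 3 (adjusted P = 0.8094 by limma) and 0.37 without KO eTreg 1 (adjusted P = 0.3434).

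The other 8 genes overlapped between KO and control eTregs, with differences of -0.19 (*Ets1*, 95% confidence interval -0.41 to 0.020) to 0.18 (*Bach2*, -0.12 to 0.47). In the fit of all arrays the intervals were -0.22 to 0.30 for *Lef1*, -0.15 to 0.42 for *Klf2* and -0.20 to 0.25 for *Tcf7*. Without KO eTreg 2 and 3, which leaves KO eTreg 1 alone, the differences were 0.57 for *Foxp1*, 0.45 for *Bach2*, 0.35 for *Lef1* and 0.35 for *Klf2*. Those of *Tcf7*, *Foxo1*, *Id3* and *Ets1* were then between -0.063 and 0.036. Without KO eTreg 1 the differences were -0.13 for *Foxp1*, 0.039 for *Bach2*, -0.11 for *Lef1* and 0.030 for *Klf2*. Those of *Tcf7*, *Foxo1*, *Id3* and *Ets1* were in that refit between -0.26 and 0.22. In cTregs 0 of the 10 genes passed (0.045% of all transcript clusters by limma), 0 had an unadjusted P below 0.05 (4.01% of all), and the arrays of KO and control cTregs overlapped for every one of the 10 (2.35% of all transcript clusters were lower and 2.7% higher without overlap). The differences there ran from -0.17 (*Bach2*, 95% confidence interval -0.46 to 0.12) to 0.086 (*Satb1*, -0.20 to 0.37).

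**Figure D3:**
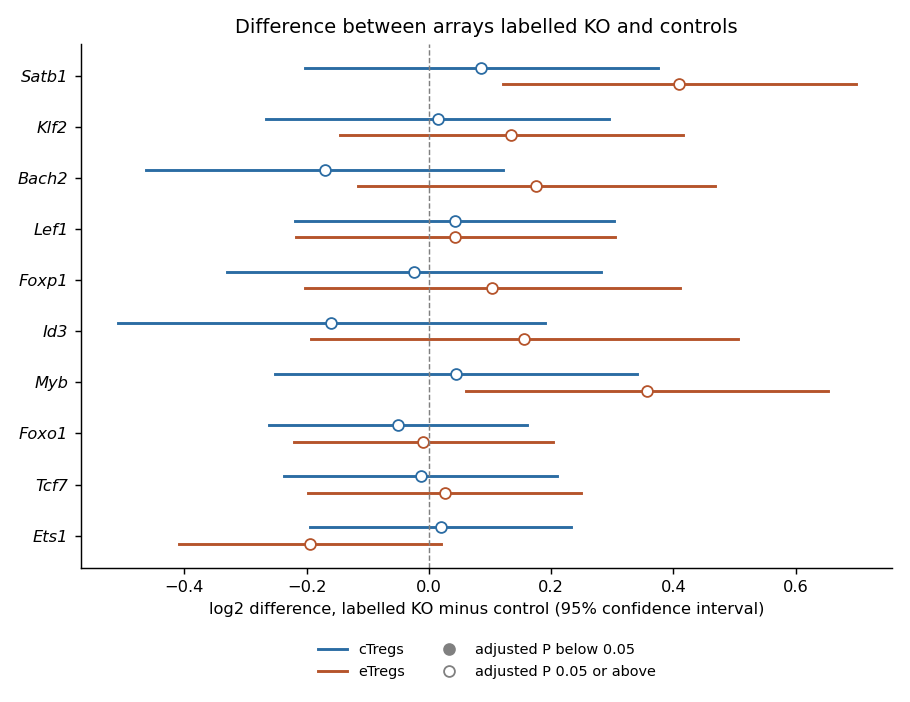
Log2 difference of arrays labelled KO minus controls (x axis) for each gene (y axis) in cTregs (blue) and eTregs (orange). Points are limma estimates and lines 95% confidence intervals, none of the 20 points has an adjusted P below 0.05, and the interval leaves out 0 only for *Satb1* and *Myb* in eTregs.

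Whether the step from cTregs to eTregs differed by genotype was tested as an interaction. By limma 0 of 10 genes passed, as did 0% of all transcript clusters, and 0 of 10 had an unadjusted P below 0.05 (6.12% of all). The estimates were positive for 9 of 10 genes, meaning a smaller fall or a larger rise in the KO arrays, as for 43.6% of all transcript clusters. The highest were 0.35 for *Bach2* (95% confidence interval -0.067 to 0.76, adjusted P = 0.8465) and 0.32 for *Satb1* (-0.085 to 0.73, adjusted P = 0.8466), and *Lef1* gave 0.00098 (-0.37 to 0.37). Without KO eTreg 2 and 3, which leaves KO eTreg 1 alone, the estimates were 0.68 for *Satb1*, 0.62 for *Bach2*, 0.59 for *Foxp1* and 0.30 for *Lef1*. Without KO eTreg 1 they were 0.15, 0.21, -0.10 and -0.15 in the same order. *Foxp1* and *Lef1* thus turned negative in that refit, and the other genes kept their sign.

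The 3 KO eTreg arrays differed among themselves in these genes. KO eTreg 1 exceeded the highest control eTreg array for 6 of 10 genes, KO eTreg 2 for 5 and KO eTreg 3 for 2. The share of all transcript clusters for which each of these arrays did so was not counted. These counts therefore cannot be read as particular to the 10 genes. For *Satb1* KO eTreg 1 lay 71.2% of the way from the mean of the control eTregs to that of the control cTregs, for *Lef1* 55.2%, for *Bach2* 54.4%, for *Klf2* 39.7% and for *Foxp1* 120%. On KO eTreg 2 the same genes lay at 25.9%, -17.0%, 32.6%, 3.06% and -4.37%, and on KO eTreg 3 at 17.1%, -17.6%, -23.2%, 3.71% and -50.2%. They are the genes for which KO eTreg 1 was the highest eTreg array. Of the other genes, KO eTreg 1 lay at 9.98% for *Tcf7*, 10.4% for *Id3*, -12.9% for *Foxo1* and 108% for *Myb*. For *Ets1*, where the control eTreg mean was the higher one, it lay at 61.2%.

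With each gene standardised over the 14 arrays, the mean of the 10 genes was -0.040 SD on KO eTreg 1 and -0.55 and -0.96 on KO eTreg 2 and 3. It was -0.90 to -0.64 in control eTregs, 0.61 to 0.80 in control cTregs and 0.20 to 0.89 in KO cTregs. KO eTreg 1 was also the eTreg array with the lowest macrophage sum and with a *Cd44* signal (10.60) below those of the control eTregs (10.95 to 11.35). The part of cell mixture in this spread was not tested. The arrays with the highest macrophage sums, KO eTreg 2 and 3, had *Lef1* signals (11.95 and 11.94) under all control eTregs and *Klf2* signals (9.93 and 9.94) within their range. *Satb1* and *Myb* lay above every control eTreg array on both, and *Tcf7*, *Bach2* and *Id3* on KO eTreg 2.

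**Figure D4:**
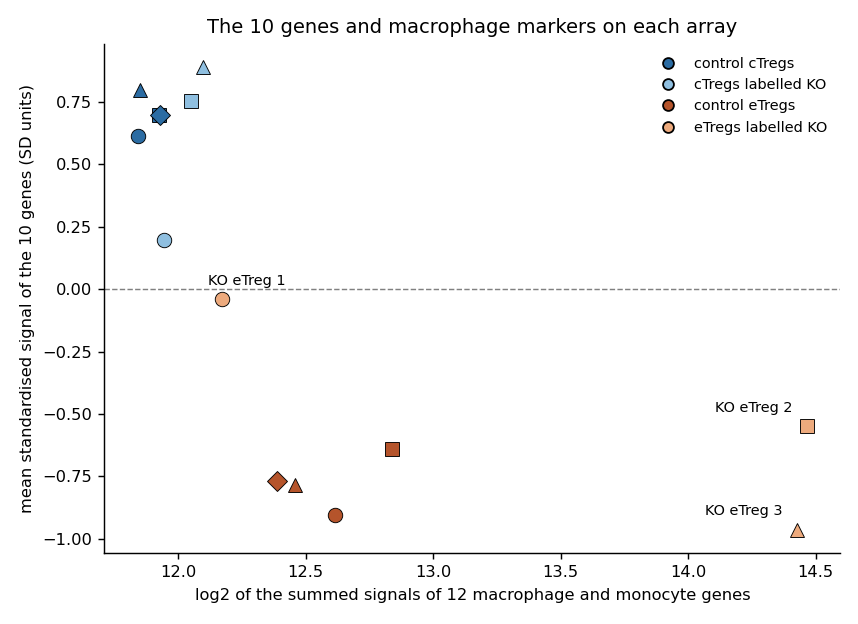
Mean standardised signal of the 10 genes (y axis, SD units) against the log2 of the summed signals of 12 macrophage and monocyte genes (x axis) on each of the 14 arrays, coloured by group, with symbols for replicate numbers as above. KO eTreg 2 and 3 lie far right at 14.47 and 14.43, and KO eTreg 1 lies between the cTreg and the control eTreg arrays at -0.040.

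Genes that Foxo1, Klf2 or TCF-1 are known to act on moved in the control subsets as well. Of 16 such genes 8 were lower and 1 higher in control eTregs (1.2% and 2.38% of all transcript clusters), with a median of -0.47. By adjusted P the leading 4 were *Dapl1* (-1.35, adjusted P = 5.384e-05 by limma), *Actn1*, which encodes α-actinin (-0.87), *S1pr1*, the sphingosine 1-phosphate receptor for exit from lymphoid tissue (-0.87), and *Bcl2l11*, which encodes the death factor Bim (-0.86). The gene that was higher was *Ctla4* (0.58, adjusted P = 0.01721), an inhibitory receptor of Tregs that Foxo1 can switch on, named after its value was seen. In the KO arrays 4 of the 16 were lower (0.374% of all; 0 of the 16 without KO eTreg 2 and 3), with *Dapl1* at -1.11, *Bcl2l11* at -0.95 and *S1pr1* at -0.78, and for genotype 0 passed in either subset.

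Close relatives of the 10 genes mostly did not pass this test. Of 24 relatives (other TCF, BACH, SATB, KLF, FOX, ID, MYB and ETS genes) 1 was higher in control eTregs, *Id2* (0.93, adjusted P = 0.0003103 by limma), which like *Id3* blocks E proteins, and 1 lower, *Klf7* (-0.64, adjusted P = 0.0432). *Ets2* (-0.65, adjusted P = 0.05321) and *Klf13* (-0.36) did not pass. These counts lie near those of all transcript clusters (2.38% higher and 1.2% lower), and the median of the relatives was -0.093. In the KO arrays 1 was higher and 0 lower (2.06% and 0.374% of all), and 0 passed without KO eTreg 2 and 3.

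Of 18 other regulators of quiescence, among them Btg, Tob, Tsc and Runx genes, 1 was lower in control eTregs, *Tsc22d3*, which encodes the glucocorticoid-induced factor GILZ (-0.79, adjusted P = 0.006135 by limma). Of all transcript clusters 1.2% were lower by this rule. The median of these 18 was -0.059, and 0 passed in the KO arrays (0.374% of all were lower and 2.06% higher).

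Transcription factors of effector T cells went the opposite way. Of 14, 9 were higher in control eTregs (2.38% of all transcript clusters were) and 0 lower, with a median of 0.90, and 7 were higher in KO eTregs (2.06% of all), or 1 without KO eTreg 2 and 3. The leading 4 in controls were *Maf* (1.36), *Nfil3* (1.70), *Rora* (1.69) and *Bhlhe40* (1.56), with adjusted P from 1.221e-05 to 5.216e-05 by limma. *Id2* stands in this list as well as among the relatives. For genotype and for the interaction 0 genes of these 4 lists passed.

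**Figure D5:**
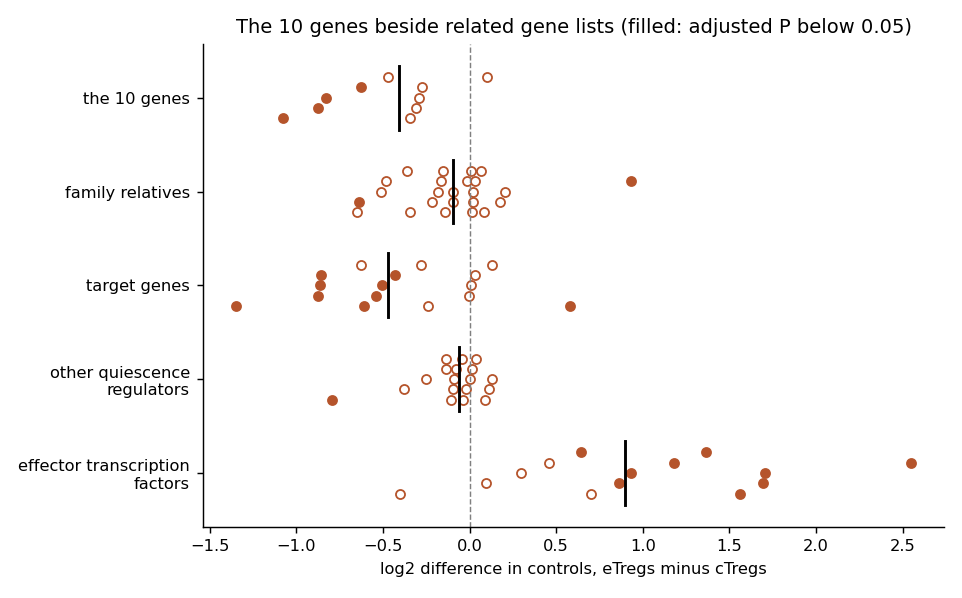
Log2 difference of control eTregs minus control cTregs (x axis) for every gene of 5 lists (y axis), with black lines at the list medians and filled points for an adjusted P below 0.05. The 10 genes and the target genes lie mostly left of 0 (medians -0.41 and -0.47), and the effector transcription factors right of it (median 0.90).

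Likeness of pattern was measured as Pearson's r over the 14 arrays among transcript clusters with a mean signal above the median. It is a description, since the arrays fall into 2 subsets and genes that differ between these correlate for that reason. The mean of the 10 standardised genes was most like *Vipr1*, a receptor for vasoactive intestinal peptide (r = 0.974), *Nedd4l* (0.968), *Ager* (0.967), *Treml2* (0.967) and *Foxn3* (0.967). By single gene *Satb1* was most like *Dusp10* (0.977) and *Mfhas1* (0.976), and *Klf2* most like *Dapl1* (0.972), *Aim1* (0.945) and *S1pr1* (0.942). For *Lef1* the nearest were *Pydc4* (0.984), *Pydc3* (0.964) and *Cytip* (0.962), for *Bach2* *Ager* (0.962), *Cd55* (0.951) and *Foxn3* (0.950), and for *Foxp1* *Kif21b* (0.961), *Bcl2* (0.952) and *Rab3ip* (0.948). *Tcf7*, *Foxo1*, *Myb* and *Ets1* had lower maxima of 0.906, 0.907, 0.886 and 0.899.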

How the data were processed

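Total RNA of sorted cTregs and eTregs was amplified and labelled with the Whole Transcript Plus assay and read on Clariom S mouse arrays. The authors summarised probes by robust multi-array average (RMA) in Expression Console 1.1, per the submitters' processing notes, and the deposited values are log2 signals. RMA corrects background, quantile normalises over arrays and so hides any change in total RNA. The genome build of the array annotation is not given in the sources used here.

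Of 28846 entries, 6640 control probe sets and 3 entries without a symbol were left out, and no filter on signal was set. Group means of all 14 arrays were fitted with lmFit and eBayes of limma 3.58.1 in R 4.3.3, with Benjamini-Hochberg adjustment over 22203 transcript clusters, and called at an adjusted P below 0.05. The scripts were tested on simulated data. The number of arrays limits the precision. Alternatives were the groups compared alone, 2 other scalings, array weights, an intensity trend, a filter at the 60th percentile, replicate blocks, other thresholds and each array left out in turn. All 10 members are named. Of each context list up to 4 genes with the smallest adjusted P in controls are named, and any that passed for genotype. Members and lists were chosen with earlier results of these data known. Promoter sequences come from RefSeq (GRCm38.p6). Values of 1 further gene are not reported here.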

Additional observations from a re-analysis of the deposited data

How the results depend on the processing

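Between control subsets the count of 4 genes was 7 with array weights and 4 to 5 with 1 array left out. In the arrays labelled KO the count of 3 was 0 in a fit of only the groups compared, 5 with array weights, 0 to 5 with 1 array left out and 0 without KO eTreg 2 and 3. The count of 7 for the mean of both subset effects was 4 to 7 with 1 array left out, 4 without KO eTreg 2 and 3 and 4 where a log2 difference of 0.5 or more was also asked, with the adjusted or the unadjusted P. For genotype and the interaction the count was 0 under every alternative run. Shares of all transcript clusters were counted in the fit of all arrays only, not under the alternatives. Counts in the context lists moved with 1 array left out or under another alternative. Between control subsets they ran from 1 to 5 for the relatives, 7 to 12 for the target genes, 1 to 2 for the quiescence list, 7 to 12 for effector factors, 0 to 7 for macrophage and 0 to 2 for dendritic cell genes. Between KO subsets they ran from 0 to 3, 0 to 7, 0 to 1, 1 to 11, 0 to 11 and 0 to 6 in the same order. Across 1350 refits of single genes the direction and side of the threshold held in 1233, a call was lost in 40 and gained in 15, and the direction turned in 62, all with an adjusted P of 0.6361 or more. The cause of these changes was not tested. In a comparison of 2 groups, leaving out an array of another group cannot change the difference. A gene that passes in neither fit also counts as held. The count of 1233 is therefore no measure of robustness. Each gene had 1 entry, so the entry of lowest mean gave no other value.

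Same-numbered cTreg and eTreg arrays of a genotype deviated together weakly (correlation 0.044 to 0.30, over 0.1 for 5 of 7 pairs). Of 7 cTreg arrays 6 were best matched by their own number, so pairing by number is not excluded. The sources used here do not say that a number marks a chimera. The fit reported above therefore took no pairs, and replicate blocks were run as alternatives. With a replicate block the counts were 4 in controls, 3 in the KO arrays, 0 for genotype and interaction and 6 for the mean of both subset effects, and with the number alone as block 5, 3, 0 and 7.

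The direction turned for the following log2 differences. With array medians subtracted these were, between KO subsets -0.012 (*Myb*), for genotype in eTregs 0.0042 (*Foxo1*) and for genotype in cTregs -0.0047 (*Klf2*). With 75th percentiles subtracted these were, between KO subsets -0.029 (*Myb*), for genotype in cTregs 0.0053 (*Tcf7*) and for the interaction -0.037 (*Lef1*). With array weights these were, between KO subsets -0.018 (*Myb*), for genotype in eTregs -0.041 (*Lef1*), 0.026 (*Foxo1*) and -0.071 (*Foxp1*), for genotype in cTregs 0.071 (*Tcf7*) and -0.024 (*Klf2*) and for the interaction -0.070 (*Tcf7*), -0.10 (*Lef1*) and -0.061 (*Foxp1*). With the number alone as block these were, for genotype in eTregs -0.0043 (*Lef1*) and 0.012 (*Foxo1*) and for genotype in cTregs -0.0053 (*Lef1*) and -0.022 (*Ets1*). Without KO eTreg 2 and 3 these were, between KO subsets 0.12 (*Foxp1*), -0.018 (*Myb*) and 0.021 (*Ets1*) and for the mean of both subset effects 0.062 (*Ets1*). With 1 array left out the values ran, between KO subsets, from -0.17 to 0.096 (*Id3*) and from -0.051 to 0.069 (*Myb*). For genotype in eTregs they ran from -0.077 to 0.031 (*Foxo1*), from -0.13 to 0.27 (*Foxp1*), from -0.11 to 0.12 (*Lef1*) and from -0.0080 to 0.061 (*Tcf7*). For genotype in cTregs they ran from -0.034 to 0.057 (*Ets1*), from -0.075 to 0.023 (*Foxp1*), from -0.074 to 0.094 (*Klf2*), from -0.028 to 0.086 (*Lef1*), from -0.023 to 0.12 (*Myb*) and from -0.10 to 0.10 (*Tcf7*). For the interaction they ran from -0.026 to 0.082 (*Foxo1*), from -0.10 to 0.30 (*Foxp1*), from -0.15 to 0.078 (*Lef1*) and from -0.078 to 0.13 (*Tcf7*). For the mean of both subset effects they ran from -0.036 to 0.021 (*Ets1*).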
